A study of Homo sapiens with 4 samples.

Results

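The regions described here are dense groups of c-Jun binding sites, called hubs, in BT549 cells exposed to TNFalpha. A hub was a run of at least 3 c-Jun peaks in which neighbouring peaks were separated by gaps of at most 20 kb. Only peaks called both against IgG and against input chromatin entered the chains, with an overlap of at least 1 bp between the lists. Of the 4159 such both-control peaks, 468 (11.3%) fell into 135 hubs, while 1000 lay in 500 pairs and 2691 stood alone. Hub membership was therefore chosen by the peak positions in the 2 lists of the library with TNFalpha. BT549, an established line, derives from a human breast carcinoma without hormone receptors or HER2, and c-Jun binding was measured by ChIP-seq, in which DNA crosslinked to a protein is recovered with an antibody and sequenced. All cells were serum-starved overnight. Of the 4 libraries, 1 c-Jun library came from cells given TNFalpha and 1 from cells not given it, and the libraries of normal rabbit IgG and of input chromatin, both from TNFalpha-treated cells, served as controls for both c-Jun libraries. The sample labels give 6 hours of TNFalpha and the series text gives 3 hours. Each condition was 1 library, so no difference below has a replicate check, no p-value was computed, and intervals cover counting error only. The numbers of reads were not used here, so depth is unknown and a peak missing from a list may lie below its threshold.

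AP-1 dimers pair c-Jun with itself or with other Jun, Fos or ATF proteins. AP-1 is switched on by kinase cascades downstream of TNFalpha, cytokines, growth factors and stress, and it binds enhancers and promoters through short palindromic sites. Many inflammatory genes carry AP-1 sites beside sites for NF-kB, the other main transcription factor activated by TNFalpha. In breast cancer cells of mesenchymal type AP-1 is known for binding many distal elements, often several around 1 gene. The word hub here describes the spacing of peaks alone, since no histone mark, chromatin contact or transcript was measured in these files.

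All peak positions are 1-based positions on hg19. No annotation of hg19 was used, so gene names given beside hubs are general knowledge of where well-known genes lie and were not checked by coordinates. All 21 genes named in this way, at 20 hubs, were present in the RefSeq table for GRCh38.p14, which was used only for gene names, gene order and sequence. Hubs at genes without a familiar position are given by coordinates alone.

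At 6 genes, CXCL8, CXCL2, KLF6, IFNGR1, DUSP1 and B4GALT1, a hub peak lies at the place where transcription is known to start. Promoter sequences from RefSeq (GRCh38.p14) are shown for 3 of these, chosen because they hold a motif match before the start, to place the peaks beside the letters that AP-1 and related factors read. Each runs 5′ to 3′ on the strand of the gene, 300 bp in all, with the last 50 bases lying after the start. Capitals mark matches to TGANTCA (AP-1), TGACGTCA (the cyclic AMP response element, bound by ATF and Jun dimers) and GGNNNTTCC (letters like those of NF-kB sites), searched on both strands. No marked match overlaps a match of another motif, and GGAATTTCC reads as a match on both strands.
CXCL8: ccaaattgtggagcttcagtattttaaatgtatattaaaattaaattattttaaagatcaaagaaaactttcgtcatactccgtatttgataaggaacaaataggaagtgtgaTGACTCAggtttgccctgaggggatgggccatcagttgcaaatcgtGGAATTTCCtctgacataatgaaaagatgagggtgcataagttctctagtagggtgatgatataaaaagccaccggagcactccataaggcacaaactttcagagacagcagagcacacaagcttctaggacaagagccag
CXCL2: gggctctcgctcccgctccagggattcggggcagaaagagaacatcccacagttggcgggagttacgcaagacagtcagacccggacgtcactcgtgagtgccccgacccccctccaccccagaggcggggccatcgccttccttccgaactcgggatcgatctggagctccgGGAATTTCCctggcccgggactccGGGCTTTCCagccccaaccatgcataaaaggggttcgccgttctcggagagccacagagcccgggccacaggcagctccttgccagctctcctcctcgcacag
DUSP1: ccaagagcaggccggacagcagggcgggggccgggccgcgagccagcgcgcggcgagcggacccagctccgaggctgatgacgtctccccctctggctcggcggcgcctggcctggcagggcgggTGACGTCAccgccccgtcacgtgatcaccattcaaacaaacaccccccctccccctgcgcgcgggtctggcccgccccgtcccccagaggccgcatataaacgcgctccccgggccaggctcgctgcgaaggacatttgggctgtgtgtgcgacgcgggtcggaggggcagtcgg
The CXCL8 window held 1 AP-1 match, beginning 137 bases before the start, and 1 NF-kB-like stretch beginning 91 bases before it. The CXCL2 window held NF-kB-like stretches beginning 77 and 53 bases before the start and no AP-1 match. The DUSP1 window held 1 TGACGTCA, beginning 125 bases before the start. Among all 35116 promoter windows of this length, 7.71% held TGANTCA, 1.85% held TGACGTCA and 20.1% held GGNNNTTCC. The KLF6 window and both B4GALT1 windows held none of the 3 motifs. Of the 2 IFNGR1 windows, 1 held an NF-kB-like stretch after the start, and neither held the other motifs. These matches describe the letters of the reference and show no site of binding, and the sequences under the peaks themselves were not analysed here.

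Most hubs were small. Of the 135 hubs, 94 held 3 peaks, 26 held 4, 11 held 5, 3 held 6 and 1 held 9. Their length from the first to the last base ranged from 1.41 to 45.0 kb, with a median of 15.1 kb and quartiles of 8.98 and 20.9 kb. Together the hubs spanned 2180.4 kb, of which the peaks covered 252 kb (11.6%). The 333 gaps inside hubs had a median of 3.83 kb, and 83 of them (24.9%) were under 1 kb. A gap under 1 kb occurred in 68 hubs, and whether the peaks on its sides are separate sites was not tested. The shortest hub, on chromosome 17 from 17054367 to 17055773, had 3 peaks with gaps of at most 107 bp. At the other end, 12 hubs were longer than 30 kb.

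**Figure D1:**
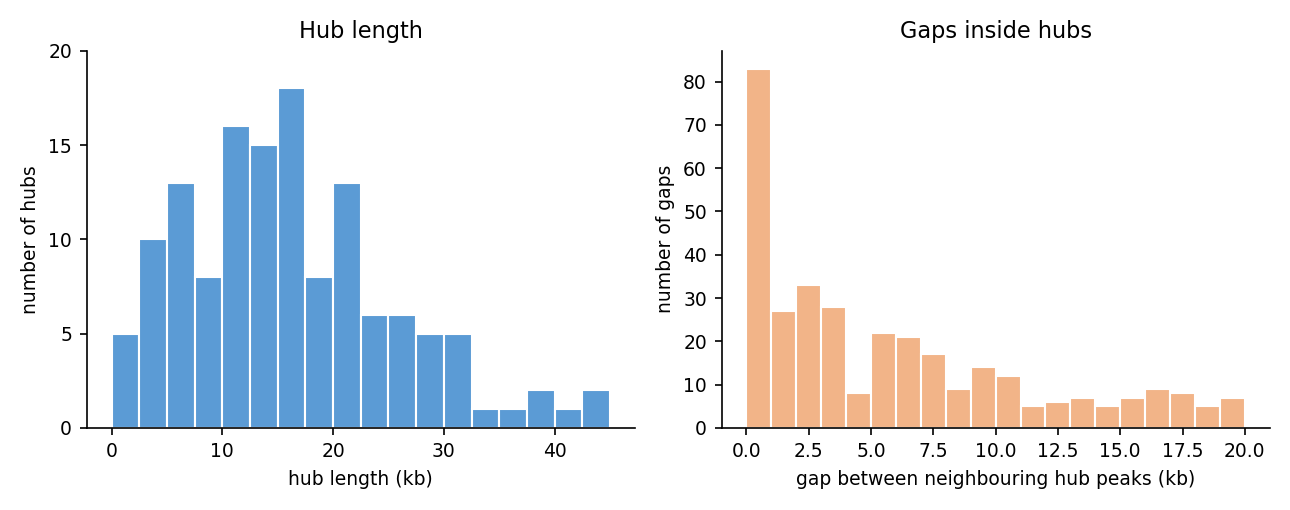
Left, number of hubs (y axis) by hub length in kb (x axis); right, number of gaps (y axis) by the gap between neighbouring peaks of a hub in kb (x axis). Hub length had a median of 15.1 kb, and gaps under 1 kb, 83 of 333, were the most frequent.

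The limit of 20 kb did not fall in a natural break. Between all both-control peaks, 37 gaps measured 18 to 20 kb and 34 measured 20 to 22 kb. The largest gap kept was 19.99 kb and the smallest not kept was 20.11 kb. Of the 500 pairs, 14 had a further peak 20 to 22 kb away and so missed the rule narrowly, and 12 hubs held a gap of 18 to 20 kb. Hubs occurred on chromosomes 1 to 12 and 14 to 22. Chromosome 5 had the most, 18 hubs with 61 of its 370 peaks (16.5%), followed by chromosomes 1 and 3 with 15 each and chromosome 8 with 14. Chromosome 13 had 0 hubs among 117 peaks, and chromosome X had 0 among 98.

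Hub peaks carried somewhat higher scores than other peaks of the same list. The score is the value the authors' peak caller gave each peak, with a lowest value of about 50 in each list. Scores of different lists are not on 1 scale, so scores with and without TNFalpha stand side by side below and are not compared in size. Against IgG the median score was 101 in hubs (quartiles 71.0 and 149), 92.1 in pairs and 87.2 for peaks standing alone. Against input the medians were 152 in hubs, 148 in pairs and 141 for lone peaks. Median widths were 484 bp in hubs, 438 bp in pairs and 423 bp for lone peaks. These values come from the same lists as the rule and are a description.

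The rule did not use the library without TNFalpha, and the hub peaks were looked up in its lists. Peaks called only with TNFalpha count towards a chain, however, so this look-up is not independent of how hubs were chosen. The reverse look-up is given below. Of the 468 hub peaks, 271 (57.9%, 95% Wilson interval 53.4 to 62.3%) overlapped a peak of either list of that library, against 64.1% of all both-control peaks. Outside hubs the share was 64.9% (63.3 to 66.4%, 2395 of 3691). Thus 197 hub peaks (42.1%) were called only with TNFalpha, against 35.9% of all both-control peaks. Hub peaks found in both lists without TNFalpha numbered 195 (41.7%, against 49.5% of all), those found in the input list alone numbered 60 (12.8%, against 12.6%), and those found in the IgG list alone numbered 16 (3.42%, against 2.02%). Of the found hub peaks, 10 were matched through a single peak without TNFalpha that spanned 2 or more of them.

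The share found without TNFalpha was lowest in the largest chains, whose size counts the peaks called only with TNFalpha. It was 65.8% (64.0 to 67.5%) for lone peaks, 62.5% (59.5 to 65.4%) in pairs, 63.1% (57.3 to 68.5%) in hubs of 3, 52.9% (43.4 to 62.2%) in hubs of 4 and 46.3% (36.0 to 57.1%) in hubs of 5 or more, the last from 82 peaks in 15 hubs. The interval of each chain size overlaps that of the next larger size. Hubs of 3 were close to the 64.1% of all both-control peaks. The median IgG-list score was 98.0 in hubs of 3, 109 in hubs of 4 and 103 in hubs of 5 or more. Whether peak score has a part in these shares was not tested.

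Both-control peaks were divided by IgG-list score into 5 bands of equal number. Within each score band, hub peaks were found without TNFalpha less often than peaks outside hubs. In the lowest band the shares were 41.9% (31.3 to 53.3%) and 49.9% (46.3 to 53.4%). In the second band they were 46.2% (35.5 to 57.1%) and 53.4% (49.9 to 57.0%). The intervals overlap in both these bands. In the middle band they were 58.4% (48.0 to 68.1%) and 61.2% (57.6 to 64.6%), with intervals that overlap widely. In the next band above they were 60.4% (50.9 to 69.2%) and 74.5% (71.2 to 77.6%). In the highest band, 88 of 121 hub peaks were found (72.7%, 64.2 to 79.9%), against 619 of 711 outside (87.1%, 84.4 to 89.3%). When the peaks outside hubs were weighted to the score bands of the hub peaks, their share was 67.8%. Peaks of 1 hub share a locus and are not independent, so the intervals are narrower than the true uncertainty, and the difference was not tested. Peaks called only with TNFalpha count towards hubs in every band, so banding by score does not remove that selection.

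**Figure D2:**
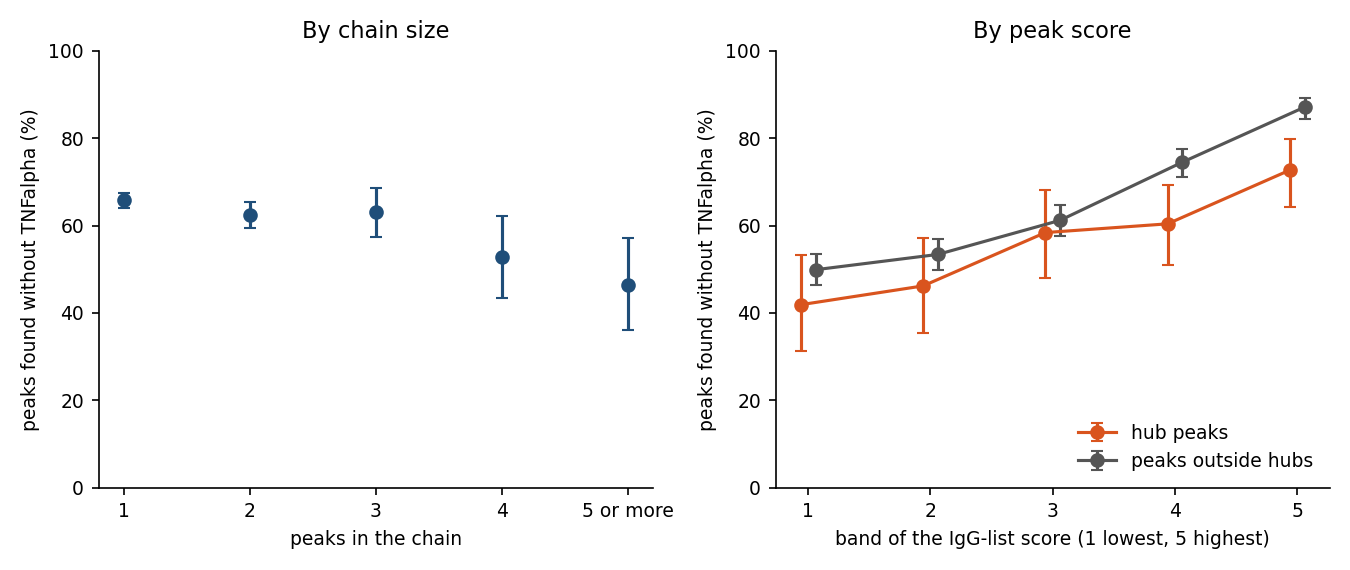
Percentage of peaks with TNFalpha that overlap a peak of either list without TNFalpha (y axis), left by the number of peaks in the chain, right by band of the IgG-list score for hub peaks (orange) and peaks outside hubs (grey). Bars are 95% Wilson intervals; the share is 65.8% for lone peaks and 46.3% in hubs of 5 or more, and in the highest score band 72.7% in hubs and 87.1% outside.

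Most hubs combined peaks found without TNFalpha with peaks called only with it. In 100 of 135 hubs (74.1%) some peaks were found, in 28 every peak was found and in 7 none was. Peak by peak, 57.9% of hub peaks were found, against 64.1% of all both-control peaks. At such shares many groups of 3 or more peaks would be mixed whatever their spacing. How many was not computed, so the split is a description and no trait of hubs. Among hubs of 3, 27 had every peak found, 35 had 2, 27 had 1 and 5 had 0. Among the 41 hubs of 4 or more, 1 had every peak found, 38 were mixed and 2 had 0 found. At least 3 peaks were found without TNFalpha in 42 hubs, and at least 3 overlapped both-control peaks without TNFalpha in 21.

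**Figure D3:**
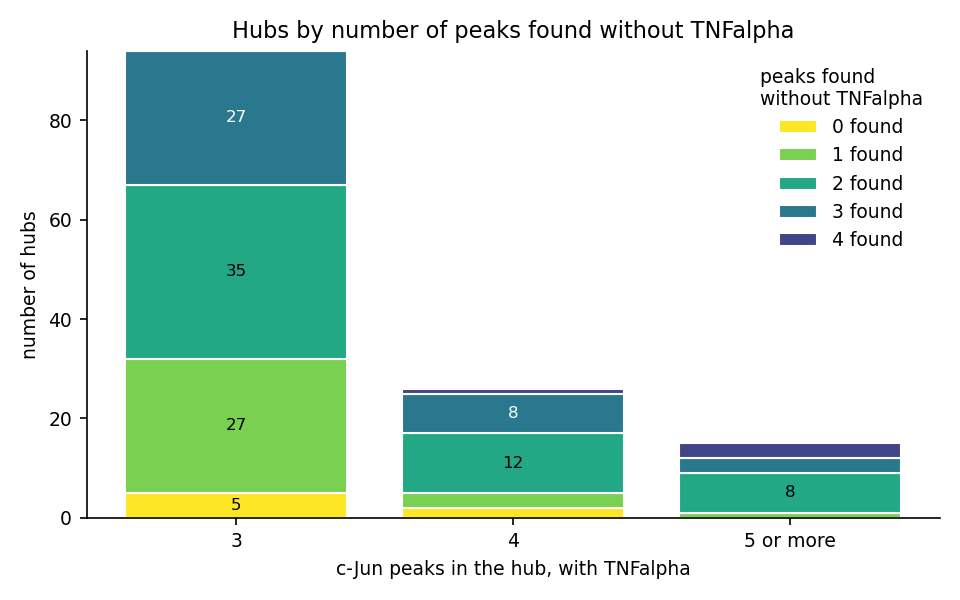
Number of hubs (y axis) by the number of c-Jun peaks in the hub with TNFalpha (x axis); colours give how many of these peaks were found in either list without TNFalpha, and segments of over 4 hubs carry their number. Of the 94 hubs of 3 peaks, 27 had all 3 found and 5 had 0 found.

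The same chaining of the 3086 both-control peaks without TNFalpha gave 35 hubs with 117 peaks (3.79% of these peaks), the largest with 5. Fewer peaks entered these chains than the 4159 with TNFalpha, and a shorter list can give fewer hubs at the same gap. Depth is unknown as well, so the number and share of hubs are not compared between the libraries. Of the 35, 19 (54.3%) overlapped a hub with TNFalpha, which is 14.1% of the 135. Hubs with TNFalpha were chosen in the library in which they are dense, so the reverse look-up is given as well. Of the 117 peaks in hubs built without TNFalpha, 97 were found in either list with TNFalpha (82.9%, 75.1 to 88.7%), against 79.9% of all both-control peaks without TNFalpha and 79.8% (78.3 to 81.2%) of those outside these hubs. Every peak was found with TNFalpha in 21 of these 35 hubs, some in 14 and none in 0. The interval for the 117 peaks includes that background. The 2 libraries share their controls, so these overlaps are given as a description.

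Inside hubs, the peaks found without TNFalpha had the higher scores. The median IgG-list score was 111 for found hub peaks and 86.6 for the others, and outside hubs the medians were 101 and 73.2. The highest scoring peak was found in 101 of 135 hubs (74.8%, 66.9 to 81.4%) and the lowest scoring peak in 70 (51.9%, 43.5 to 60.1%). Of the other hub peaks, 100 of 198 were found (50.5%, 43.6 to 57.4%), so only the highest scoring peak stood apart. In the 100 mixed hubs, the highest scoring peak was found in 73 and the lowest in 42. End peaks were found in 59.3% (53.3 to 65.0%) and inner peaks in 56.1% (49.1 to 62.8%), with overlapping intervals. Of the 174 peaks called only with TNFalpha in hubs that also held a found peak, 81 lay within 5 kb of one, and the median gap to the nearest was 5.50 kb. Of the 3881 peaks called with TNFalpha against input alone, 26 lay inside hubs, in 24 of them. Of these 26, 5 were found without TNFalpha (19.2%, 8.51 to 37.9%), against 38.9% of the 3881.

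The chemokine genes on chromosome 4 carried 2 hubs. CXCL8 encodes interleukin-8, a neutrophil attractant and a classical target of AP-1 and NF-kB together, and its neighbours in gene order are RASSF6 and CXCL6. The hub with the most peaks, 9 over 36.4 kb from 74569948 to 74606359, lies on the upstream side of CXCL8 and reaches its start. Its first peak, from 74569948 to 74570951, had scores of 276 against IgG and 423 against input with TNFalpha, and of 147 and 181 without it. The second, from 74573589 to 74574215, had 65.2 and 184 with TNFalpha and was called without it against input alone, at 95.3. The other 7 peaks had no overlapping peak without TNFalpha. Of these, the sixth and the seventh scored 165 and 93.7 against IgG and 442 and 447 against input, above the first peak's 423 in the latter list. The ninth peak, from 74606108 to 74606359, covers the place of the CXCL8 start, whose promoter letters are shown above, and was weak, at 50.8 against IgG and 96.7 against input. The peaks found without TNFalpha were thus the pair farthest from CXCL8. The fourth and the fifth peaks were 17 bp apart.

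**Figure D4:**
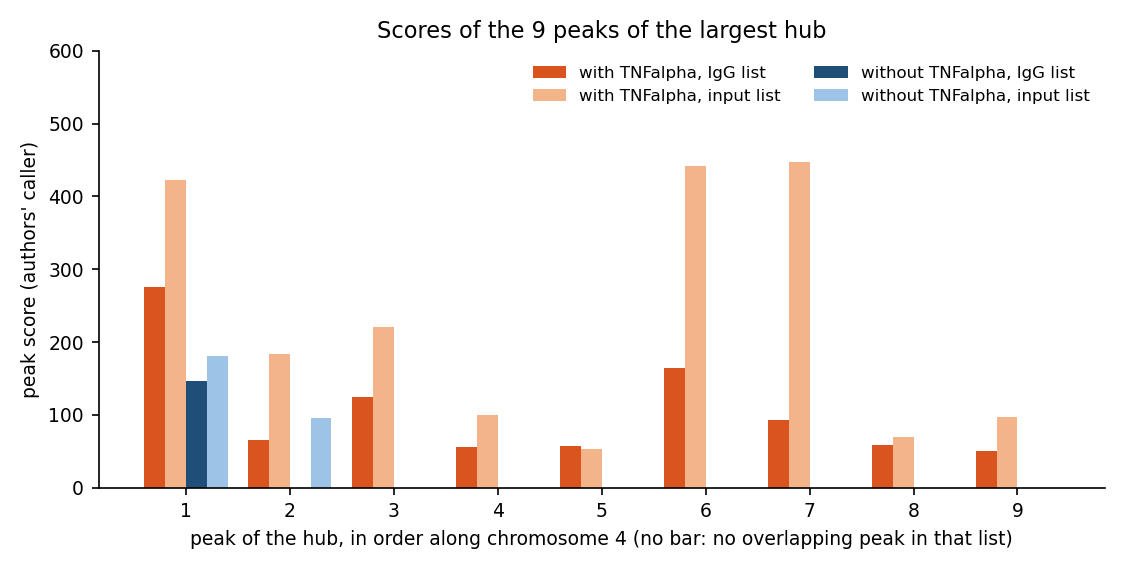
Peak scores given by the authors' caller (y axis) for the 9 peaks of the hub on the CXCL8 side of chromosome 4 (x axis, in order), in the 4 lists; a missing bar means that no peak of that list overlaps. Only the first 2 peaks have bars without TNFalpha, and the highest bars are the sixth and seventh peaks against input with TNFalpha, at 442 and 447.

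The second chemokine hub, from 74964512 to 74983133, held 4 peaks over 18.6 kb. Its first peak, from 74964512 to 74965258, covers the place of the start of CXCL2, another neutrophil attractant, which lies between CXCL3 and MTHFD2L in gene order. That peak scored 149 against IgG and 105 against input and was not found without TNFalpha. The next 2 were found, the second peak in both lists (64.1 against IgG and 331 against input, beside 81.0 and 382 with TNFalpha) and the third against input alone (58.3). The fourth, scoring 139 and 151, was not found. In both chemokine hubs the peak at the gene start was called only with TNFalpha while a peak away from it was present in both libraries. At CXCL8 the start peak, at 50.8 against IgG, was close to the lowest score of its list, so its absence without TNFalpha carries little weight.

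At IRF1, a transcription factor induced by interferon and TNFalpha, the hub held 4 peaks on chromosome 5 from 131816974 to 131834287, from the gene to the region upstream of it. The strongest, from 131831085 to 131832086, scored 254 against IgG and 304 against input and was not found without TNFalpha. The third peak, at 145 against IgG, was found in the IgG list alone, at 54.2, close to the lowest score of that list. Its neighbour only 18 bp away scored 169 and was not found. At BCL3, a nuclear member of the I-kB family that modulates NF-kB, the 3 peaks on chromosome 19 from 45240438 to 45256861 were weak, from 63.9 to 77.0 against IgG. Only the second was found without TNFalpha, at 66.3 against IgG and 79.2 against input. At IRAK2, a kinase of interleukin-1 and Toll-like receptor signalling, the middle of 3 peaks, on chromosome 3 from 10233511 to 10234210, scored 302 with TNFalpha and 92.4 without it against IgG. The peak before it, at 152, was not found.

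In 7 hubs no peak was found without TNFalpha, among them those at KLF6, IFNGR1 and FRMD4A. KLF6 is a zinc-finger transcription factor induced by injury and cytokines. Its hub held 4 peaks over 28.8 kb on chromosome 10 from 3825080 to 3853836, with IgG-list scores of 75.7, 81.5, 56.5 and 115. The second, from 3827149 to 3827699, covers the place of the KLF6 start. IFNGR1 encodes the ligand-binding chain of the interferon gamma receptor. Its hub held 4 peaks over 21.5 kb on chromosome 6 from 137540335 to 137561849. The first covers the place of the gene start and scored 92.2 against IgG and 70.0 against input, and the last scored 146 and 336. All 8 peaks of these 2 hubs were in neither list without TNFalpha, which follows from how the hubs were picked. Of all both-control peaks, 35.9% were in neither list. The weakest peaks, at 56.5 in the KLF6 hub and 56.8 in the IFNGR1 hub against IgG, lay near the lowest score of the list. Inside FRMD4A, a scaffold gene of cell polarity, 3 peaks lay on chromosome 10 from 14020364 to 14029892, led by 1 of 274 against IgG and 448 against input. The remaining hubs of this kind had 3 peaks each. The chromosome 5 hub, 118733125 to 118747713, had a highest IgG-list score of 207. The chromosome 1 hub, 234631050 to 234641863, reached 195. The chromosome 3 hub, 99721676 to 99725773, lies inside FILIP1L and reached 163. The chromosome 7 hub, 30208800 to 30213012, reached 99.9. The highest score in these 7 hubs, 274, was at rank 185 of the 4159.

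In 27 of the 100 mixed hubs the highest scoring peak was not found without TNFalpha. The IgG-list scores of these 27 peaks ranged from 72.3 to 289.8, with a median of 127. The first of them by score lay on chromosome 8 from 22249757 to 22251513 (289.8 against IgG, 561 against input). At B4GALT1, a galactosyltransferase of the Golgi, the second of 4 peaks, on chromosome 9 from 33159305 to 33160347, scored 279.7 and was not found. The first and the third were found, at 135 and 119.9 against IgG without TNFalpha, and the fourth, from 33166779 to 33167372, at the place of the gene start, was weak (58.5) and not found. On chromosome 22, in the neighbourhood of LIF, a cytokine of the interleukin-6 family that adjoins OSM, the hub from 30591757 to 30608954 went the other way. Its first peak was the strongest, at 532 against IgG and 873 against input, and was found in both lists without TNFalpha, at 245 and 356. Its other 2 peaks were not found, and they scored 384 and 116 against IgG.

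**Figure D5:**
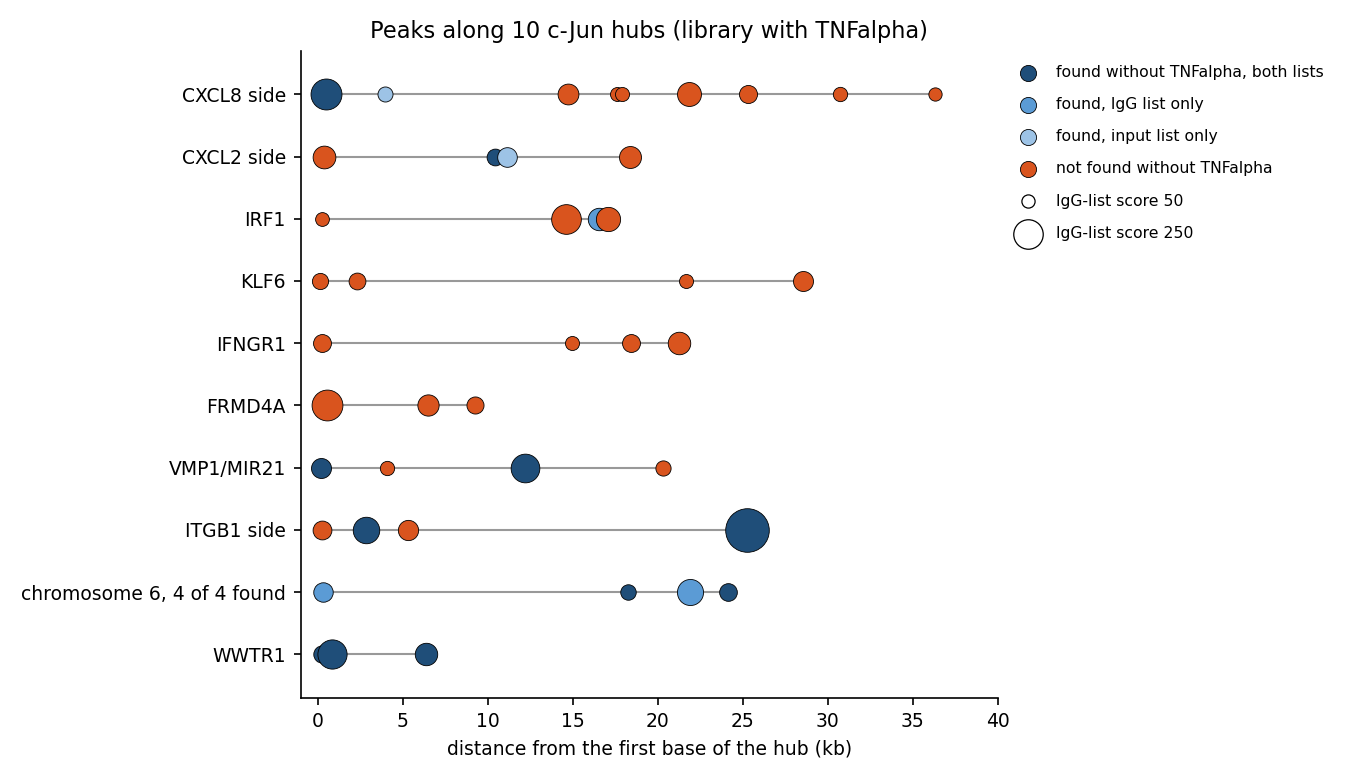
Peaks along 10 hubs, as distance from the first base of the hub in kb (x axis), 1 hub per row; circle area is proportional to the IgG-list score with TNFalpha and colour gives where the peak was found without TNFalpha. Orange circles, not found, fill the KLF6, IFNGR1 and FRMD4A rows and 7 of the 9 places of the CXCL8 row, and the WWTR1 row has none.

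DUSP1 encodes a phosphatase that switches off p38 and JNK, the kinase that activates c-Jun. Its hub had 3 peaks on chromosome 5 from 172185140 to 172198599, with IgG-list scores of 67.9, 78.8 and 51.9. The last, from 172197991 to 172198599, covers the place of the gene start, scored 247 against input and was found without TNFalpha against input alone, at 109. The other 2 were not found. Inside EGFR, the epidermal growth factor receptor gene, 3 weak peaks on chromosome 7 scored 63.5, 65.9 and 59.9 against IgG. The middle one was found without TNFalpha at 132 against IgG and 184 against input, beside 65.9 and 81.1 with TNFalpha.

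A hub on chromosome 17 from 57902854 to 57923403 runs from inside VMP1 past its end and past the microRNA gene MIR21. By order of gene starts MIR21 follows VMP1 and precedes TUBD1, and whether it overlaps VMP1 was not looked up. MIR21 is known as an AP-1 target and abundant in many carcinomas. The mature product is shown with its seed (bases 2 to 8, which pair with target transcripts) in capitals, from RefSeq.
hsa-miR-21-5p: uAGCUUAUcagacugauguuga
Of its 4 peaks, the first and the third were found in both lists without TNFalpha. The third, from 57914733 to 57915400, was the strongest, at 237 and 415 with TNFalpha and 112 and 169 without it, against IgG and input. The second and the fourth, at 58.9 and 66.7 against IgG, were not found. Here the stronger pair was present in both libraries and the weaker pair only with TNFalpha.

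The hubs at ITGB1, DLGAP1 and PALM2AKAP2, which encode adhesion and scaffold proteins, were mixed. Upstream of ITGB1, the beta subunit of many matrix-binding integrins, a hub of 4 on chromosome 10 from 33269370 to 33295085 alternated. Its second and last peaks scored 202 and 547 with TNFalpha and 122 and 351 without it against IgG, while the first (102) and the third (118) were not found. The peak of 547 was the highest scoring of all hub peaks. Inside DLGAP1, a scaffold gene of cell junctions of nerve cells, 6 peaks spanned 31.4 kb on chromosome 18 from 3593859 to 3625214, and only the first 2 were found. Inside PALM2AKAP2, which encodes an anchor for protein kinase A, 5 peaks spanned 42.7 kb on chromosome 9 from 112861532 to 112904254, and only the fourth was found.

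In 28 hubs every peak was found without TNFalpha. The only such hub of 4 lay on chromosome 6 from 113993836 to 114018221, with IgG-list scores of 109, 69.1, 196 and 90.1 with TNFalpha and 59.6, 66.8, 54.1 and 80.2 without it. The first and the third were called without TNFalpha against IgG alone. On chromosome 8 from 29512840 to 29533563, 3 peaks scored 363, 394 and 127 with TNFalpha and 291, 417 and 76.3 without it. On chromosome 5 from 5340209 to 5351975 they scored 285, 97.7 and 339 with TNFalpha and 188, 56.4 and 289.7 without it. The hubs at 177527974 to 177548673 of chromosome 3 and 38234490 to 38253491 of chromosome 20 each included 1 peak found against input alone. Inside ABL1, a tyrosine kinase gene, 3 peaks lay within 2.21 kb on chromosome 9 from 133721247 to 133723457, with scores of 50.6, 182 and 417 with TNFalpha and 52.9, 74.2 and 110.0 without it. At WWTR1, which encodes the YAP-related coactivator TAZ that acts with TEAD factors, all 3 peaks on chromosome 3 from 149293301 to 149300124 were found in both lists. They scored 87.2, 246 and 145 with TNFalpha and 98.0, 291 and 102 without it against IgG.

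The other large hubs were mixed as well. On chromosome 5 from 66597065 to 66627738, 6 peaks spanned 30.7 kb, and the first and the fifth, the strongest pair with 247 and 159.8 against IgG, were found against input alone. On chromosome 16 from 29272970 to 29302767, 6 peaks spanned 29.8 kb, of which the second was found in both lists and the sixth against input. The longest hub, 45.0 kb on chromosome 7 from 17691543 to 17736521, had 4 of its 5 peaks found. On chromosome 9 from 21576211 to 21616481, 2 of 4 peaks over 40.3 kb were found, and a further hub began 40.6 kb beyond it, the only pair of hubs within 100 kb of each other. On chromosome 1 from 235116399 to 235154320, the fourth of 5 peaks over 37.9 kb scored 376 with TNFalpha and 79.6 without it against IgG, and the first, at 194, was not found.

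Peaks called only without TNFalpha were also looked for inside hubs. Of the 620 both-control peaks without TNFalpha that overlapped no peak with TNFalpha, 2 lay inside a hub. One, from 5342922 to 5343442, lay in the chromosome 5 hub described above in which every other peak was found, with scores of 61.9 against IgG and 144.94 against input. The other lay inside NRG1, which encodes an ERBB receptor ligand, on chromosome 8 from 32086491 to 32087149, with scores of 64.1 and 143.19. In that hub of 4, the peaks of 59.5 and 225 with TNFalpha were found without it and those of 68.2 and 213 were not. All hubs together span only 2180.4 kb and were chosen where peaks with TNFalpha are dense. How many of the 3086 both-control peaks without TNFalpha lie inside hubs was not counted. The number inside hubs therefore does not show how often hubs lose peaks.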

How the data were processed

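c-Jun ChIP-seq was available as 4 deposited peak lists from 2 libraries of BT549 cells, fixed with 1% formaldehyde for 10 minutes. Per the submitters' processing notes, CASAVA 1.8 made the base calls, Bowtie 0.12.9 was the aligner and hg19 the build. Each library was called against IgG and against input, per the labels, and peak names begin with MACS. For the caller, version, threshold and duplicate handling are not given in the sources used for this text. The score of each peak is the value the authors deposited, on an unstated scale, and was used only to describe and rank peaks within a list. Lists of 1 library rest on the same reads. Both libraries share the same 2 controls, from TNFalpha-treated cells, so their peak sets are not independent.

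Starts were raised by 1 from the BED convention. Both-control peaks, chains (gaps of at most 20 kb, at least 3 peaks) and presence without TNFalpha (overlap of at least 1 bp with either list) came from scripts in Python 3.11.15 (scipy 1.17.1, pandas 2.3.3, numpy 2.4.6, and matplotlib 3.10.9 for plots). Overlaps and chains were checked against bedtools 2.31.1, and 0 of 18 counts differed. On simulated data 1600 of 1600 peaks fell into a chain of the right size. Shares carry 95% Wilson intervals. Hubs described one by one were the 6 with the most peaks, the 4 longest, the first 6 with no peak and with every peak found without TNFalpha, and those of at least 4 peaks enclosing a peak called only without TNFalpha. All other hubs were named after their values were seen, most of them for well-known genes. The hub rule, gene lists and alternatives were chosen with earlier results of these data known. Gene lists were not counted over hubs and motifs were not searched under peaks, as neither an hg19 genome nor its annotation was used. The letters GGNNNTTCC were chosen later than the other motifs.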

Additional observations from a re-analysis of the deposited data

How the results depend on the processing

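No paired analysis was possible because the series has a single c-Jun library with and a single one without TNFalpha, which also prevents leaving a library out. The main values were 135 hubs, 468 peaks, 57.9% of hub peaks found without TNFalpha, a difference of -6.98 percentage points from peaks outside hubs, and 28, 100 and 7 hubs with every, some and no peak found. A largest gap of 10 kb left 306 peaks and 17 hubs with every peak found. A largest gap of 50 kb gave 254 hubs and 912 peaks, with 54, 183 and 17 hubs. Requiring 4 peaks gave 41 hubs, 186 peaks, 50%, a difference of -14.8 points, and 1, 38 and 2 hubs. The higher scoring 50% of the IgG list gave 49 hubs, 160 peaks, a difference of -18.0 points (58.1% against 76.1%), and 10, 37 and 2 hubs. Joining peaks within 1 kb left 303 peaks, with 18 hubs with every peak and 4 with no peak found. Against the IgG list alone the share was 45.1%, with 15 hubs with every peak and 20 with no peak found. Against the input list alone 12 hubs had no peak found. Against both-control peaks alone the share was 41.7%, with 13 and 27 hubs. Counting peaks within 500 bp raised the share to 63.0% and left the difference at -3.70 points, the smallest of those computed. The difference was below 0 in each of the 12 alternatives. All of them build hubs from peaks with TNFalpha in the same libraries, and peaks called only with TNFalpha count towards hubs in each. The shared sign is therefore no independent support. Stricter both-control overlap, a presence overlap that covers 50% or more of the shorter peak, and leaving out chromosome 8 kept every count within 1.5 times. The alternatives for the difference and for the hubs built without TNFalpha were added after seeing the data. The latter hubs numbered 35, and 20, 101 and 10 with gaps of 10 kb, of 50 kb and with 4 peaks. The intended search for AP-1 motifs under peaks was not run.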
